A study of Homo sapiens with 4 samples.

Results

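NFE2L2, KEAP1 and 7 antioxidant genes (TXN, TXNRD1, SRXN1, NQO1, HMOX1, ME1 and OSGIN1) were described across the 4 RNA-seq libraries of a study of endogenous retrovirus knockout in ovarian cancer cells. They were chosen as a regulator, its inhibitor and target genes outside glutathione synthesis, by their symbols in the count files, and make up 9 of 52402 symbols. In the knockout (KO) cultures env, the envelope gene that HERV-K119 (a HERV-K provirus) carries, had been disrupted with CRISPR-Cas9. The groups were OVCAR3 KO, OVCAR3 mock, SKOV3 KO and SKOV3 mock, with 1 library each, and the mock cultures were labelled as controls. OVCAR3 and SKOV3 are human ovarian cancer cell lines. All 4 groups carried the same drug label, hygromycin at 100 µg/mL over 2 days, begun about 18 h after transfection. The labels name no clone or pool of knockout cells. RNA of the targeted provirus was not analysed here.

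NFE2L2 encodes NRF2, a transcription factor that turns on genes of the response to oxidants and electrophiles. KEAP1 holds NRF2 in the cytoplasm and presents it to the CUL3 ubiquitin ligase for degradation, and oxidants or electrophiles that modify KEAP1 let NRF2 build up. NRF2 then pairs with a small MAF protein and binds antioxidant response elements (AREs) near its target genes. NRF2 is regulated largely through protein stability, so the mRNA levels reported here do not measure its activity. In ovarian cancer the pathway is often studied for its link to resistance to platinum drugs.

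The total counts lay between 15145483 and 22057693 per library. Levels are counts scaled to library size (CPM) after normalisation by the trimmed mean of M values (TMM), ratios are log2 of scaled CPM with a prior count of 2, and brackets hold exact 95% counting intervals of the ratio of the counts. Since each group is 1 library, differences between libraries of a line lack a replicate check. Higher or lower by the size rule means that the log2 ratio was at least 1 in size and the CPM at least 1 in 1 or both libraries of the pair. The OVCAR3 KO library stood apart, with 21.9% of its counts in mitochondrial genes, against 5.16% to 5.93% in the other libraries. The summed level of 6 epithelial markers was 2094 CPM in OVCAR3 KO, 7615 CPM in OVCAR3 mock, 5170 CPM in SKOV3 KO and 5564 CPM in SKOV3 mock. These markers were thus found in every library, with the lowest sum in OVCAR3 KO. Of 6 ovarian cancer and Mullerian markers, WT1 and SOX17 had 0 counts throughout, and the list summed to 50.6 CPM in OVCAR3 KO, 62.6 CPM in OVCAR3 mock, 28.5 CPM in SKOV3 KO and 26.6 CPM in SKOV3 mock, led by MSLN. Of 5 leukocyte markers, PTPRC and CD3E had 0 counts throughout, and the list summed to 9.57 CPM in OVCAR3 KO and 15.8 CPM in OVCAR3 mock, against 34.9 CPM in SKOV3 KO and 35.7 CPM in SKOV3 mock, nearly all from CD68. Of 6 mesenchymal markers, COL3A1 and LUM had 0 counts throughout, and the list summed to 36.0 CPM in OVCAR3 KO and between 19.7 and 21.7 CPM in the other libraries, mostly from COL1A1. The sum of 4 endothelial markers was at most 2.31 CPM. CDKN2A, known to be deleted in SKOV3 cells, had 91.2 CPM in SKOV3 KO and 90.6 CPM in SKOV3 mock. ERBB2, known to be amplified in SKOV3 cells, had 31.97 CPM in OVCAR3 KO, 73.3 CPM in OVCAR3 mock, 55.7 CPM in SKOV3 KO and 58.5 CPM in SKOV3 mock. These values go against the SKOV3 label. The OVCAR3 label was not checked with line genes of its own. In OVCAR3 mock PAX8 had 8.83 CPM, MUC16 2.74 CPM and WT1 0 counts. The line names thus stand here for the labels only.

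RefSeq windows of GRCh38.p14, running from 250 bases before to 50 bases after an annotated start, were matched for NFE2L2, KEAP1, TXN, TXNRD1, SRXN1, NQO1, ME1 and OSGIN1. These windows are 11 in number, since NFE2L2, KEAP1 and TXNRD1 each have a second start. They were searched on both strands for the ARE core in a C form, TGACNNNGC, and a G form, TGAGNNNGC, and for the AP-1 motif TGANTCA, which can lie inside an ARE. The windows shown are those of OSGIN1 (chr16:83952990-83953289, plus strand), which had the lowest OVCAR3 ratio, ME1 (chr6:83431002-83431301, minus strand), TXNRD1 at its first start (chr12:104215529-104215828, plus strand) and KEAP1 at its second start (chr19:10502722-10503021, minus strand). Each reads 5′ to 3′ along the gene. Capitals mark motif matches, and a match on the opposite strand appears as its reverse complement.
OSGIN1: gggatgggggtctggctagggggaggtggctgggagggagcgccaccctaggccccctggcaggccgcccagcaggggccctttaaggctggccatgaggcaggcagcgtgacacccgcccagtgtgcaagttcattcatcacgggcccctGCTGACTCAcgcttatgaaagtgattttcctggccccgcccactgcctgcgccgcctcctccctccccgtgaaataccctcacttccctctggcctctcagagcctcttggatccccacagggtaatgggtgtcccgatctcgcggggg
ME1: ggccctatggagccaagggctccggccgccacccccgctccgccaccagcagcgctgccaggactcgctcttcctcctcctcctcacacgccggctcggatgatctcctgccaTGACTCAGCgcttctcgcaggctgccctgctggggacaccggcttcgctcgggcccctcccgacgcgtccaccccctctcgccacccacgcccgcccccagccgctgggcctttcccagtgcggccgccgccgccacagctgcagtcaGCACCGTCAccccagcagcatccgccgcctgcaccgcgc
TXNRD1: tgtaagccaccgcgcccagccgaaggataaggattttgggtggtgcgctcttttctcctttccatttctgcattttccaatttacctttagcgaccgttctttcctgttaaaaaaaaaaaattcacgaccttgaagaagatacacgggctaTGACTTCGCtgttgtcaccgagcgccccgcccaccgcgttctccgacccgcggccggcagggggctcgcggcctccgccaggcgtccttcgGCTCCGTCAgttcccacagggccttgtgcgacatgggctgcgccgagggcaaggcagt
KEAP1: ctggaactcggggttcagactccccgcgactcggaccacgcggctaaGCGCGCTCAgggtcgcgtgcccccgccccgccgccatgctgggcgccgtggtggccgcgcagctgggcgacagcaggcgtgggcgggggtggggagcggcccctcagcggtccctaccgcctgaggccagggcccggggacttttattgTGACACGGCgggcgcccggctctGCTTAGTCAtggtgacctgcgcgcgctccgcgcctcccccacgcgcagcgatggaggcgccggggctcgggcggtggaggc

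OSGIN1 held 1 match, TGAGTCAGC on the opposite strand, with its leftmost base 99 bases before the start. ME1 held TGACTCAGC at 137 bases before the start. Both of these matches contain the AP-1 motif. TXNRD1 held TGACTTCGC at 99 bases before its first start and KEAP1 held TGACACGGC at 54 bases before its second start. The other capitals in these windows are matches on the opposite strand. TXNRD1 held TGACGGAGC at 8 bases before that start, and KEAP1 held TGACTAAGC at 31 and TGAGCGCGC at 203 bases before. ME1 held TGACGGTGC from transcribed base 12. Either ARE form was present in 7 of the 11 windows, covering 6 of the 8 genes, against 29.1% of all 35116 windows in the table. The C form was in 4 windows, of KEAP1, TXNRD1 and ME1, against 13.3% of all windows. The G form was in 5 windows, of NFE2L2, KEAP1, NQO1, OSGIN1 and TXNRD1, against 18.3% of all windows. The AP-1 motif was in the windows of OSGIN1 and ME1, against 7.71% of all windows. SRXN1 and TXN had no match in their windows. GC content ran between 53.7% and 80% in these 11 windows, against a median of 58.7% over the table. A match describes letters and not binding.

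**Figure D1:**
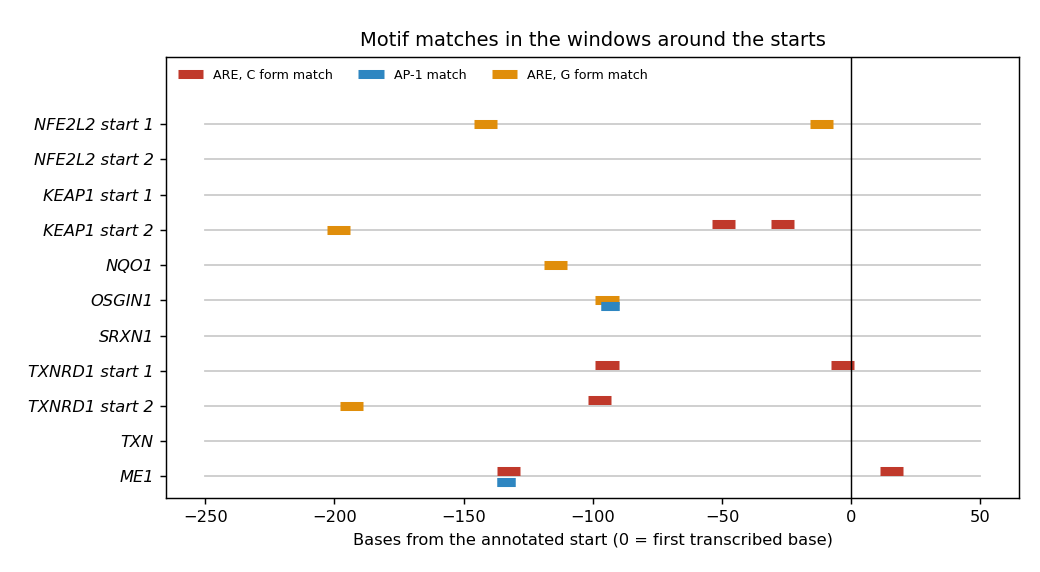
Positions of motif matches in the 11 windows around annotated starts, in bases from the first transcribed base. Red, orange and blue bars mark the ARE C form, the ARE G form and the AP-1 motif, and blue bars occur only for OSGIN1 and ME1.

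The knockout comparison sets KO against mock within each line. In the OVCAR3-labelled pair, 5 of the 9 genes were at least 2-fold lower in KO (KEAP1, SRXN1, HMOX1, ME1 and OSGIN1) and 0 were at least 2-fold higher, and their median log2 ratio was -1.39. Over all 15560 genes measured in that pair, 15.4% were lower and 22.5% higher by the same rule, with a median log2 ratio of 0.16. Among 12166 protein-coding genes 18.3% were lower and 13.04% higher, and the median was -0.02. In the SKOV3-labelled pair 0 of the 9 genes passed the rule in either direction and their median was 0.01. In that pair 0.739% of 13524 genes were lower and 0.799% higher, with a median of 0.01. The share of mitochondrial counts and the epithelial marker levels moved with the OVCAR3 difference, and their part in it was not tested. Less of an mRNA in a bulk sample can mean fewer cells of a type or less RNA per cell, which cannot be told apart.

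NFE2L2, the regulator (gene ID 4780, chromosome 2, 177230303 to 177264727), had 126 CPM in OVCAR3 KO and 178 CPM in OVCAR3 mock. It had 116 CPM in SKOV3 KO and 115 CPM in SKOV3 mock. OVCAR3 mock stood above the other libraries, and the SKOV3 levels differed by less than counting error. The log2 ratio was -0.50 (-0.58 to -0.41) in the OVCAR3 pair and 0.01 (-0.08 to 0.09) in the SKOV3 pair.

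KEAP1, the inhibitor (chromosome 19, 10486125 to 10503356), had 21.0 CPM in OVCAR3 KO and 55.3 CPM in OVCAR3 mock. In SKOV3 KO it had 67.7 CPM and in SKOV3 mock 67.4 CPM, a difference within counting error. OVCAR3 KO was thus the lowest library, and the OVCAR3 log2 ratio of -1.39 (-1.59 to -1.21) was a 2.63-fold lower level. With the trend of the ratios on transcript GC content and length removed, it was -0.90, short of 2-fold. The longest KEAP1 transcript is 60.3% GC.

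**Figure D2:**
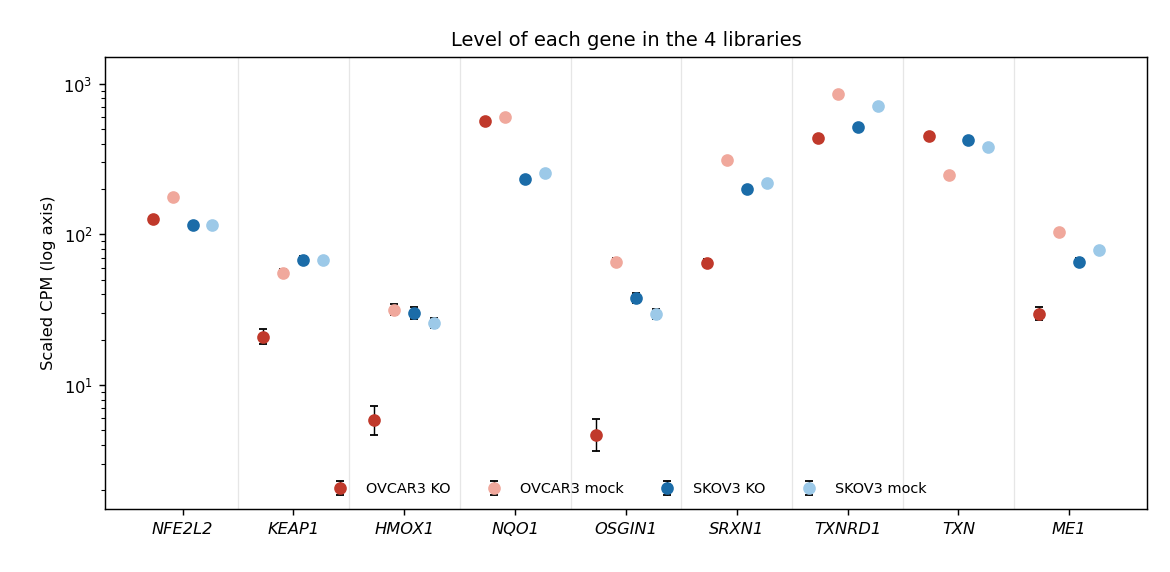
Scaled CPM (log axis) of each gene in the 4 libraries, with 1 point per library and bars for exact 95% counting intervals. OVCAR3 KO (dark red) is the lowest library for KEAP1, HMOX1, OSGIN1, SRXN1, TXNRD1 and ME1 and the highest for TXN.

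Of the 3 thioredoxin system genes, SRXN1 was past 2-fold in the OVCAR3 pair, while TXNRD1 and TXN were not. TXN, thioredoxin, a small protein that reduces disulfides in other proteins (chromosome 9, 110243810 to 110256507), had 453 CPM in OVCAR3 KO and 247 CPM in OVCAR3 mock. It had 425 CPM in SKOV3 KO and 379 CPM in SKOV3 mock. The KO library was thus the higher one in both pairs, with a log2 ratio of 0.87 (0.82 to 0.93) in OVCAR3 and 0.16 (0.12 to 0.21) in SKOV3. Without the GC content and length trend the OVCAR3 ratio was -0.020, while the SKOV3 ratio was 0.19. The TXN transcript has 869 bases, the shortest of the 9. Its 7 pseudogene rows held between 2 and 10 counts per library in all.

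TXNRD1, the cytosolic reductase that recharges thioredoxin with electrons from NADPH (chromosome 12, 104215779 to 104350307), had 436 CPM in OVCAR3 KO and 852 CPM in OVCAR3 mock. It had 520.0 CPM in SKOV3 KO and 707 CPM in SKOV3 mock. Both KO libraries were below both mock libraries. The log2 ratio was -0.97 (-1.01 to -0.92) in the OVCAR3 pair, just outside the 2-fold rule, and -0.44 (-0.48 to -0.40) in the SKOV3 pair. In the SKOV3 pair 4.64% of genes had a lower ratio. With DESeq2 size factors the OVCAR3 ratio was -1.17 and passed the rule.

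SRXN1, sulfiredoxin, which repairs overoxidised peroxiredoxins (chromosome 20, 646615 to 653200), had 64.8 CPM in OVCAR3 KO and 309.7 CPM in OVCAR3 mock. It had 199.9 CPM in SKOV3 KO and 220.1 CPM in SKOV3 mock. OVCAR3 held both the lowest and the highest library. The log2 ratio was -2.25 (-2.36 to -2.16) in OVCAR3, a 4.77-fold lower level, and -0.14 (-0.20 to -0.07) in SKOV3. Its exons share 2292 bases with the GENCODE 29 gene AL121758.1 on the same strand, so the assignment of reads there is uncertain. The same holds for OSGIN1, which shares 481 exon bases with AC009119.2, and for NFE2L2, which shares 1054 with AC019080.1. On the opposite strand NQO1 shares 575 exon bases with AC092115.2, and NFE2L2 shares 190 with AC079305.1 and 54 with AGPS. Since the strand setting of the counting is not given, the assignment of reads is uncertain there too.

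The redox enzymes outside the thioredoxin system differed widely in the OVCAR3 pair. NQO1, a quinone reductase and a standard readout of NRF2 activity (chromosome 16, 69709401 to 69726560), had 562 CPM in OVCAR3 KO and 601 CPM in OVCAR3 mock. It had 232 CPM in SKOV3 KO and 256 CPM in SKOV3 mock. Its levels grouped by line and not by knockout, with log2 ratios of -0.10 (-0.14 to -0.06) in the OVCAR3 pair and -0.14 (-0.20 to -0.08) in the SKOV3 pair. In the OVCAR3 pair 40.3% of genes had a lower ratio than NQO1.

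HMOX1, heme oxygenase, which degrades heme and is also controlled by the repressor BACH1 (chromosome 22, 35381096 to 35394207), had 5.84 CPM in OVCAR3 KO from 86 counts and 31.7 CPM in OVCAR3 mock from 520 counts. It had 30.3 CPM in SKOV3 KO and 25.9 CPM in SKOV3 mock. OVCAR3 KO stood far below the other libraries, and OVCAR3 mock and SKOV3 KO differed by less than counting error. The log2 ratio was -2.42 (-2.79 to -2.11) in OVCAR3, a 5.34-fold lower level, and 0.23 (0.05 to 0.40) in SKOV3. Only 0.925% of genes had a lower ratio in the OVCAR3 pair.

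ME1, the cytosolic malic enzyme that makes NADPH (chromosome 6, 83210402 to 83431051), had 29.8 CPM in OVCAR3 KO and 103.0 CPM in OVCAR3 mock. It had 65.8 CPM in SKOV3 KO and 79.1 CPM in SKOV3 mock. Each KO library was below its mock library. The log2 ratio was -1.79 (-1.94 to -1.64) in the OVCAR3 pair and -0.27 (-0.38 to -0.15) in the SKOV3 pair. ME1 has the lowest transcript GC content of the 9 genes, 39.5%, and its OVCAR3 ratio without the trend was -2.32.

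OSGIN1, an oxidative stress-induced growth inhibitor (chromosome 16, 83953240 to 83966332), had 4.68 CPM in OVCAR3 KO from 69 counts and 65.4 CPM in OVCAR3 mock from 1074 counts. It had 37.9 CPM in SKOV3 KO and 29.5 CPM in SKOV3 mock. The lowest and the highest library were again both OVCAR3, and in SKOV3 the KO library was the higher one. The log2 ratio was -3.77 (-4.18 to -3.45) in OVCAR3, a 13.6-fold lower level, and 0.36 (0.20 to 0.52) in SKOV3. In the OVCAR3 pair 0.0643% of genes had a lower ratio. The longest OSGIN1 transcript is 63.4% GC, the highest of the 9, and the ratio without the trend was -3.29.

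**Figure D3:**
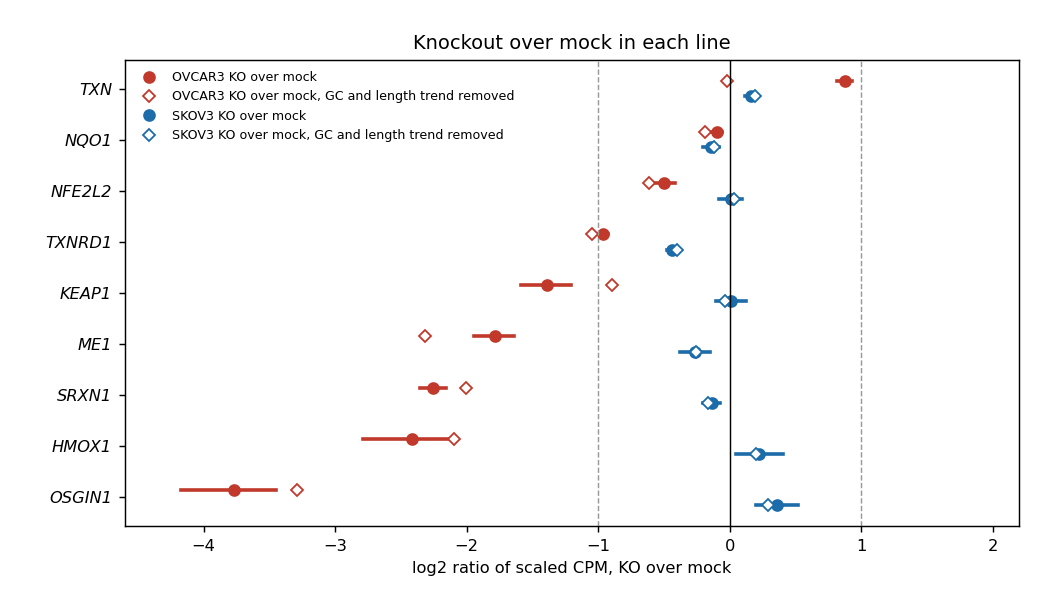
log2 ratio of KO over mock for each gene in the OVCAR3 pair (red) and the SKOV3 pair (blue), with exact 95% counting intervals, and open diamonds for ratios without the GC content and length trend. Dashed lines mark 2-fold, and 5 red points lie beyond the lower line while no blue point does.

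**Figure D4:**
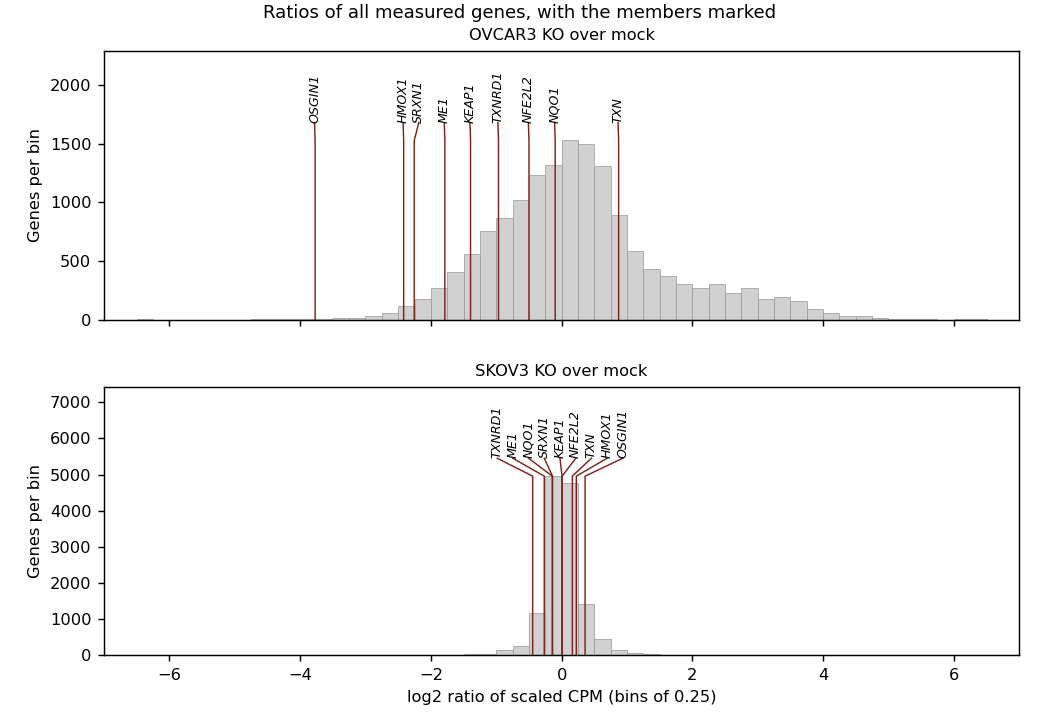
Number of genes per bin of 0.25 in log2 ratio of KO over mock, for 15560 genes in the OVCAR3 pair (top) and 13524 genes in the SKOV3 pair (bottom), with the 9 genes marked. OSGIN1, HMOX1 and SRXN1 lie in the lower tail of the OVCAR3 pair, and the 9 genes lie between -0.44 and 0.36 in the SKOV3 pair.

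The OVCAR3 ratio minus the SKOV3 ratio was -4.13 for OSGIN1, -2.64 for HMOX1, -2.12 for SRXN1, -1.52 for ME1 and -1.40 for KEAP1. It was -0.52 for TXNRD1, -0.51 for NFE2L2, 0.04 for NQO1 and 0.71 for TXN. These differences on the log2 scale could not be tested with 1 library per group. edgeR's quasi-likelihood test across both lines, with the line as a block, had 1 residual degree of freedom per gene. It called 0 of the 9 genes and 0 of 13693 genes tested, a background of 0% for that rule, and 147 genes but 0 of the 9 had an unadjusted p under 0.05. Adjusted p in edgeR lay between 0.957 and 0.986 for the 9 genes. The fitted log2 changes ran from -1.67 for OSGIN1, -1.20 for SRXN1, -1.08 for HMOX1 and -1.03 for ME1 up to 0.52 for TXN. DESeq2 and limma-voom also called 0 of the 9 genes, with 3 and 1 of them at an unadjusted p under 0.05. Over all 13693 genes, 412 (3.01%) in DESeq2 and 315 (2.30%) in limma-voom had an unadjusted p that low.

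The mock libraries labelled OVCAR3 and SKOV3 were also compared, without the knockout. NQO1 and OSGIN1 were at least 2-fold higher in OVCAR3 mock than in SKOV3 mock, and 0 of the 9 genes were 2-fold lower. Over 13721 genes, 9.47% were higher and 5.52% lower by the same rule. NQO1 had 601 CPM in OVCAR3 mock against 256 CPM in SKOV3 mock, a log2 ratio of 1.23 (1.19 to 1.28). OSGIN1 had 65.4 CPM in OVCAR3 mock against 29.5 CPM in SKOV3 mock, a log2 ratio of 1.14 (1.01 to 1.29), which was 0.89 without the GC content and length trend. NFE2L2 was higher in OVCAR3 mock by 0.62 on the log2 scale. SRXN1, ME1, HMOX1 and TXNRD1 had ratios of 0.49, 0.38, 0.29 and 0.27. KEAP1 (-0.29) and TXN (-0.62) were the genes with a lower level in OVCAR3 mock, and the median of the 9 ratios was 0.38. Over all 4 libraries, edgeR called 5 genes for OVCAR3 over SKOV3, 0.0365% of those tested, and none of the 9. NQO1 had a fitted log2 difference of 1.25 with an unadjusted p of 0.0205 and an adjusted p of 0.326 in edgeR, and both OVCAR3 libraries lay above both SKOV3 libraries.

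Per kilobase of the longest transcript, TXN had the highest level of the 9 genes in every library. It had 521 CPM per kb in OVCAR3 KO, 285 in OVCAR3 mock, 489 in SKOV3 KO and 436 in SKOV3 mock. The lowest level was that of OSGIN1 in the OVCAR3 KO library, at 1.96 CPM per kb, against 27.3 CPM per kb in OVCAR3 mock. NQO1 at 193 CPM per kb stood above TXNRD1 at 102 CPM per kb in OVCAR3 KO. In OVCAR3 mock NQO1 had 207 CPM per kb and TXNRD1 199 CPM per kb. In SKOV3 NQO1 was below TXNRD1, at 79.6 against 122 CPM per kb in KO and 87.9 against 165 CPM per kb in mock. Among the 9 genes, adjacent libraries in the order of levels differed beyond counting error except NFE2L2 and KEAP1 between SKOV3 KO and mock, and HMOX1 between OVCAR3 mock and SKOV3 KO.

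Likeness of pattern was measured as the distance between log2 CPM centred over the 4 libraries, among the 11849 genes whose counts summed to 200 or more. Within the 9 genes SRXN1 and ME1 were closest, at 0.39, followed by HMOX1 and SRXN1 at 0.54, and NQO1 and OSGIN1 were farthest apart at 3.41. The gene closest to OSGIN1 was GDF15, a secreted stress cytokine, at 0.38. GDF15 had 81.8 CPM in OVCAR3 KO, 1569 CPM in OVCAR3 mock, 680 CPM in SKOV3 KO and 599 CPM in SKOV3 mock. PER1, a circadian clock gene, followed at 0.43. Closest to HMOX1 were FAM46B at 0.11 and GADD45A, a stress-induced growth arrest gene, at 0.13. ERMP1 was closest to NFE2L2, PISD to KEAP1, DEK to TXN, CARMIL1 to TXNRD1, COTL1 to SRXN1, NDRG4 to NQO1 and ALDH4A1 to ME1, at distances of 0.02 to 0.09. With 4 libraries these distances are a description.

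In 7 lists of 78 related genes, 70 were measured in the OVCAR3 pair, of which 18 were lower and 4 higher in KO, with a median log2 ratio of -0.30. These counts and those of the single lists stand beside 15.4% of all genes lower and 22.5% higher in that pair. Among protein-coding genes alone the shares were 18.3% lower and 13.04% higher. Without the GC content and length trend 13 of the 70 were lower and 3 higher, a count chosen after seeing the data. No share of all genes without the trend is given beside such counts, here or for the single lists. In the SKOV3 pair 68 were measured, with 0 higher, 1 lower and a median of -0.04. Of 14 NRF2 regulators and partners, 6 were lower and 1 higher in OVCAR3 KO, with a median of -0.83. The small MAF partners of NRF2 were all 2-fold lower. MAFF had 13.4 CPM in OVCAR3 KO against 58.0 CPM in OVCAR3 mock, a log2 ratio of -2.10. MAFG had 45.6 CPM in OVCAR3 KO against 95.2 CPM in OVCAR3 mock (-1.06), and MAFK had 20.6 CPM in OVCAR3 KO against 54.0 CPM in OVCAR3 mock (-1.38). Without the GC content and length trend MAFG was at -0.52 and MAFK at -0.83, and 4 genes of this list were lower. DPP3, which competes with NRF2 for KEAP1, was at -1.84, and NFE2L1, a related transcription factor, at -1.64. BACH1, the repressor that competes for AREs, had 80.8 CPM in OVCAR3 KO and 48.5 CPM in OVCAR3 mock, a log2 ratio of 0.73. Without the trend BACH1 was at 0.25. CUL3, the ligase scaffold used by KEAP1, was at -0.74, or -1.28 and past 2-fold without the trend. SQSTM1, an autophagy receptor that binds KEAP1, had 5.02 CPM in OVCAR3 KO and 2.13 CPM in OVCAR3 mock, and so passed the rule, but it had at most 2.66 CPM in SKOV3. TXNIP, an inhibitor of thioredoxin, and CBR1, a carbonyl reductase, were listed at 0 in all libraries. All 3 are used by many cell types and the counting method is not stated, so these values near 0 are not read as expression levels.

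Among 7 measured genes of NADPH supply, 3 were lower in OVCAR3 KO, and the median ratio was -0.81. TKT, a transketolase, had 215 CPM in OVCAR3 KO and 729 CPM in OVCAR3 mock, a log2 ratio of -1.76. PGD, which makes NADPH in the pentose phosphate pathway, was at -1.14. In the SKOV3 pair TKT and PGD were at -0.16 and -0.01. Of 13 thioredoxin and peroxiredoxin genes, 3 were lower (SESN2 at -2.57, the mitochondrial reductase TXNRD2 at -1.74 and PRDX2 at -1.15), and the median was 0.12. Without the trend PRDX2 was at -0.91, short of 2-fold. SESN2, a stress-induced sestrin, had 15.7 CPM in OVCAR3 KO and 93.6 CPM in OVCAR3 mock.

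Of 9 glutathione genes 3 were lower and 1 higher in the OVCAR3 pair, with a median of -0.83. The higher one was GPX2, a glutathione peroxidase, with 1.49 CPM in OVCAR3 KO and 0.12 CPM, from under 3 counts, in OVCAR3 mock. GCLM, the modifier subunit of the first enzyme of glutathione synthesis, was at -1.64 and GSS, glutathione synthetase, at -1.16, or -0.87 without the trend. SLC7A11, the cystine importer, had 93.1 CPM in OVCAR3 KO against 193 CPM in OVCAR3 mock, and 25.2 CPM in SKOV3 KO against 50.9 CPM in SKOV3 mock. It was the 1 listed gene past 2-fold in the SKOV3 pair, at -1.01 (-1.18 to -0.85), beside -1.06 (-1.15 to -0.96) in the OVCAR3 pair. Without the trend the SKOV3 ratio was -0.98, and 0 listed genes passed the rule there. Of 8 heme and iron genes 2 were lower, FTH1 at -1.64 and the transporter ABCB6 at -1.12, and the transferrin receptor TFRC was at 0.66. Without the trend ABCB6 was at -0.64 and TFRC at 0.35. FTH1, ferritin heavy chain, had 1028 CPM in OVCAR3 KO and 3194 CPM in OVCAR3 mock, and its processed pseudogenes make its count uncertain. Of 14 detoxification genes 1 was lower, EPHX1 at -2.07, and 2 were higher, AKR1C1 and AKR1C3, with at most 1.63 CPM, neither of them past 2-fold without the trend. The exporters ABCC2 and ABCC1 were at 0.92 and -0.73, or 0.88 and -0.27 without the trend. Of 5 superoxide and peroxide genes none passed the rule, with PON2 at 0.93, SOD1 at 0.88 and SOD2 at 0.50. Without the trend SOD1 was past 2-fold at 1.01, while PON2 was at 0.63 and SOD2 at 0.10.

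**Figure D5:**
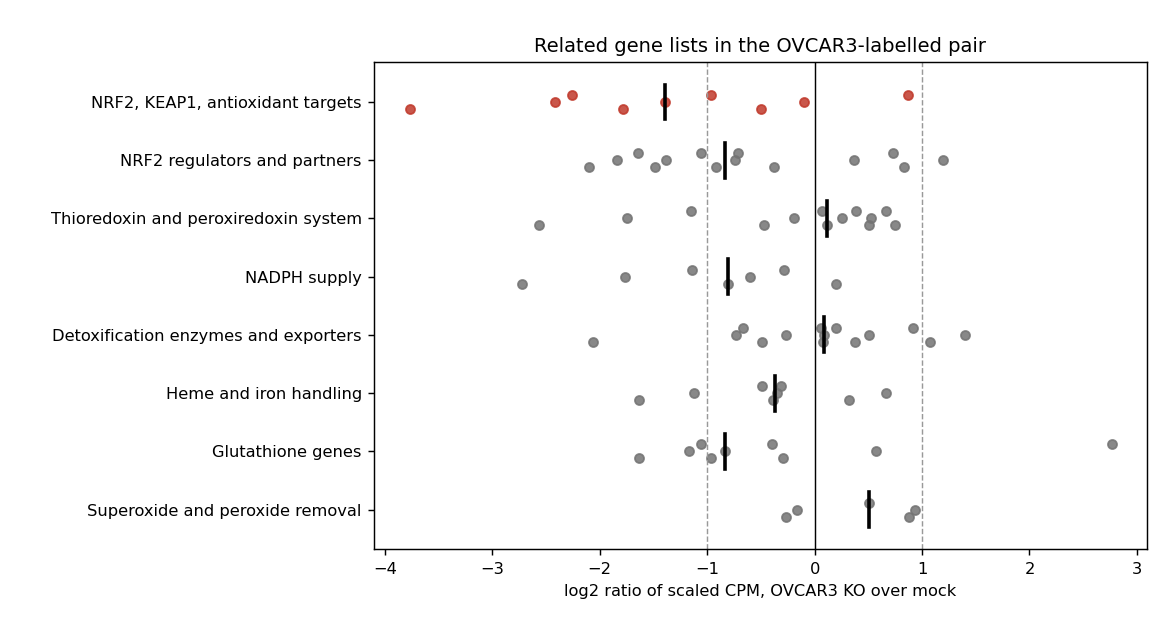
log2 ratio of OVCAR3 KO over mock for the 9 genes (red) and for the measured genes of 7 related lists (grey), with a black bar at each median. The median of the 9 genes is -1.39, and list medians run from -0.83 for the NRF2 partners and the glutathione genes to 0.50 for the superoxide and peroxide genes.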

How the data were processed

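Per the labels' protocols, Trizol RNA went into NEBNext Ultra II Directional libraries. Alignment tools and build were TopHat and GRCh38, per the submitters' processing notes. For the counting tool, annotation release and strand setting, nothing is given in the sources used here. The authors deposited raw read counts by gene symbol, in 58173 rows. Rows of 2687 repeated symbols (0.351% to 0.465% of counts) were summed. Without molecular identifiers, intervals and floors describe counting error alone. The floor of a 0 is 3 counts, or 0.136 to 0.198 CPM.

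TMM factors (edgeR 4.0.16, R 4.3.3) came from genes at 1 CPM or more in 2 or more libraries and were 0.931 for OVCAR3 KO, 1.01 for OVCAR3 mock, 1.04 for SKOV3 KO and 1.02 for SKOV3 mock. Ratio intervals are Clopper-Pearson intervals without the prior count. edgeR's quasi-likelihood test used all 4 libraries with Benjamini-Hochberg adjustment at 0.05. The labels do not say that the cultures were separate, and no group had a replicate. The residual spread behind the p-values is thus the difference in knockout effect between the lines, mixed with any technical spread. It is not a spread among replicates. DESeq2 1.42.0 and limma 3.58.1 (voom) were alternatives. Another alternative removed a spline trend (5 degrees of freedom) in GC content and in length of the longest GENCODE 29 transcript. The edgeR steps were also run on simulated data with the same knockout effect in both lines. That setting does not check the test where the knockout effect differs between the lines.

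The 9 genes and the related lists were chosen with earlier results of these data known, so they are not independent evidence. Named list genes were the 3 with the largest OVCAR3 ratio in size per list and a summed count of at least 100 in that pair, plus BACH1, CUL3, SQSTM1 and MAFG. MAFK, GPX2, AKR1C1, AKR1C3, TXNIP and CBR1 were named after their values were seen. One gene that the rule names is not reported here. Symbols were matched to RefSeq (85.2% found), and gene coordinates and windows are from its GRCh38.p14 tables.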

Additional observations from a re-analysis of the deposited data

Results flagged for a closer look

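HMOX1 and OSGIN1 stood out because their KO and mock libraries lay in opposite order in the lines, a difference that was not tested. The log2 ratio of HMOX1 was -2.42 in the OVCAR3 pair and 0.23 in the SKOV3 pair. The log2 ratio of OSGIN1 was -3.77 in the OVCAR3 pair and 0.36 in the SKOV3 pair. Both SKOV3 ratios were small, and in that pair 17.8% of genes had a higher ratio than HMOX1 and 9.49% than OSGIN1. Groups of 1 library allowed no search for samples far from their group.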

How the results depend on the processing

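KO and mock were paired only through the line as a block in the tests. Each group held 1 library, so no replicate could be left out. The count of 5 lower genes in the OVCAR3 pair was 6 with DESeq2 size factors, without scaling factors and with TMM on all rows (added after seeing the data), as TXNRD1 joined at -1.17, -1.08 and -1.26. These scalings moved the median of all genes in that pair by -0.23, -0.12 and -0.32, and no direction of the 9 genes changed with them there. It was 5 without the GC content and length trend, where TXNRD1 passed the rule and KEAP1 did not, and TXN changed direction at -0.020. At a fold of 1.5 it was 6, with 1 gene higher, and at a fold of 3 it was 4. Shares of all genes past the rule under these alternatives are not given, so these counts stand without a background. The count of 2 genes between the mock libraries was 4 at a fold of 1.5, 0 at a fold of 3 and 1 without the trend. In the SKOV3 pair NFE2L2 and KEAP1 changed sign within counting error, and no gene passed 2-fold under any alternative run. The tests called 0 of the 9 genes under every alternative run, although for the knockout the fit with no filter on low counts called 1 gene. For the line difference 184 genes were called by DESeq2, 4 by limma-voom, 226 with no filter, 61 with CPM of at least 5 and 0 with DESeq2 size factors in edgeR, against 5 in edgeR as reported. Depth limits OSGIN1 and HMOX1 most, with 69 and 86 counts in OVCAR3 KO.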

Other observations

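The related lists were also compared between the mock libraries. Of 68 genes measured in the mock libraries, 12 were at least 2-fold higher in OVCAR3 mock than in SKOV3 mock and 3 lower, with a median log2 ratio of 0.34, beside 9.47% of all genes higher and 5.52% lower. Without the GC content and length trend 9 were higher and 2 lower, with no share of all genes given for that setting. The genes named here were chosen after their values were seen. SLC7A11, the cystine importer, had 193 CPM in OVCAR3 mock and 50.9 CPM in SKOV3 mock, a log2 ratio of 1.92 (1.83 to 2.03). IDH1, which makes NADPH in the cytosol, had 121 CPM in OVCAR3 mock and 35.0 CPM in SKOV3 mock, a log2 ratio of 1.79 (1.67 to 1.91). SESN2 and FTH1 were higher in OVCAR3 mock by 1.62 and 1.61 on the log2 scale.

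The level of FTH1 was 3194 CPM in OVCAR3 mock, apart from 1028 CPM in OVCAR3 KO, 1063 CPM in SKOV3 KO and 1048 CPM in SKOV3 mock. These levels have no replicate check.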
